A study of Homo sapiens with 2 samples.

Results

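The mRNA-design probes of the Agilent catalogue that were printed once were the oligonucleotides whose names begin with A_23_P, A_24_P, A_32_P or A_33_P and that filled exactly 1 spot on each array. They numbered 26050 of the 138405 different probes that were not controls, with 9677 of A_23_P, 3835 of A_24_P, 1224 of A_32_P and 11314 of A_33_P. All were 60 bases long, and 26047 had an unflagged spot on both arrays. They are set beside the 8499 catalogue probes printed once under the prefixes A_19_P, A_21_P and A_22_P. RNA came from HepG2, an established human liver cancer cell line, 48 h after transfection. The NC cells received a scrambled siRNA and the siFOXA1 cells a mixture of 3 siRNAs against FOXA1. Each condition was hybridised to 1 array in 1 colour, so no difference below could be tested against replicates and no p-values are given. The comparison asks which RNAs differ in level after FOXA1 is knocked down.

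FOXA1 is a forkhead transcription factor that can bind its sites in closed chromatin and helps to set up the gene programme of liver cells. A catalogue probe is a DNA oligonucleotide with the sequence of the RNA it is meant for, and it captures labelled complementary RNA made from the sample. The brightness of its spot rises with the amount of that RNA, but also depends on the probe's own sequence, so levels are compared between arrays for 1 probe and not between probes. A spot was called well above background, or detected, by the scanner software's own test.

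The columns used here give a probe's sequence but no gene. The sequences below are those of the only probe that a gene start window ties to FOXA1, of the members with the largest decreases and increases that passed 1.4-fold under 3 ways of processing, including the most extreme of each prefix, and of the 3 brightest members. They are read from 5′ to 3′, and capitals mark stretches of at least 6 bases in which C and A, or T and G, alternate. The FOXA1 window probe was
A_33_P3332997: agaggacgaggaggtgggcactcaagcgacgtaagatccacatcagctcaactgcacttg
The members with the largest decreases were
A_33_P3285585: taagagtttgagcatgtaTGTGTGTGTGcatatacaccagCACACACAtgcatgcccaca
A_33_P3255964: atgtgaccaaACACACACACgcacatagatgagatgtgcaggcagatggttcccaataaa
A_33_P3381458: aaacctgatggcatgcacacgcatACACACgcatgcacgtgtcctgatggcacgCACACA
A_33_P3352382: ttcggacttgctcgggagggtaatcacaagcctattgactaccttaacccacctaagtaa
A_32_P51237: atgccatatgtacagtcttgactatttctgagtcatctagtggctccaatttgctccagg
A_23_P157333: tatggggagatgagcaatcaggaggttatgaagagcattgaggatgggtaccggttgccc
A_24_P272310: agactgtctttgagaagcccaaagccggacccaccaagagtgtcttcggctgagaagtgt
The members with the largest increases were
A_24_P316430: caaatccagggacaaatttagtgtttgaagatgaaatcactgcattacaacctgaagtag
A_24_P354715: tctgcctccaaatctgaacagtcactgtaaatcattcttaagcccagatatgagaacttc
A_23_P55251: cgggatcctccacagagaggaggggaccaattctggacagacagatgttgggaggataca
A_23_P326319: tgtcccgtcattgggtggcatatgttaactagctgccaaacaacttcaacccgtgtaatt
A_23_P128281: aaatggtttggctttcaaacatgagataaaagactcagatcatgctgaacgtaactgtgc
A_33_P3306146: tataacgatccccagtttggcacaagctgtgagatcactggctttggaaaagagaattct
A_32_P44453: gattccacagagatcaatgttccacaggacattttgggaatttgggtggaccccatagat
The brightest members on NC were
A_33_P3244165: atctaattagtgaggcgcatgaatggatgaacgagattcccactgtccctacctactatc
A_33_P3370515: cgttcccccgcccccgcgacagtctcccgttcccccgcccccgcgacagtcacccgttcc
A_33_P3354137: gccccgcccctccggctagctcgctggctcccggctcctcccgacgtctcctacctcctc

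The FOXA1 window probe, A_33_P3332997, was lower in the knockdown. It matched all 60 of its bases to chr14:37595256-37595315 of GRCh38.p14 on the minus strand, the strand of FOXA1, and ended 7 bases upstream of the FOXA1 start in RefSeq. Its signal was 126 ± 12.8 on NC and 31.9 ± 3.92 on siFOXA1, where the error is the scanner software's own. After each array was scaled to its 75th percentile, the siFOXA1 value was 3.44-fold lower (log2 difference of -1.78). With normexp background correction it was -0.90. It was detected on both arrays and shared no stretch of 20 bases with any other probe. The probe lies just outside the annotated gene, and which RNA it reads was not tested.

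Roughly 3 in 4 members were detected, and the share depended on the prefix. A_23_P probes were detected at 77.7% on NC and 77.9% on siFOXA1, and A_24_P probes at 76.9% and 76.6%. A_32_P probes followed at 68.7% and 67.0%, and A_33_P probes at 68.8% and 68.1%. In all, 73.3% of the members were detected on NC and 72.9% on siFOXA1. The other catalogue prefixes lay lower, at 49.1% and 47.7%, through A_21_P at 48.7% and 47.5% and A_22_P at 48.2% and 46.7%. The 207 probes of A_19_P were the exception at 73.4% and 71.0%, within the range of the members. The 2 arrays differed less in each member prefix than A_23_P differed from A_33_P.

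Detection mostly coincided on the 2 arrays. Of the members, 18497 were detected on both, 603 on NC alone, 500 on siFOXA1 alone and 6447, or 24.8%, on neither. The members detected on neither were 20.3% of A_23_P, 21.0% of A_24_P, 30.1% of A_32_P and 29.2% of A_33_P, against 48.8% of the other catalogue prefixes. Among A_33_P probes 308 were detected on NC alone and 221 on siFOXA1 alone, whereas among A_23_P probes the numbers were 166 and 185.

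Member signals ranged on NC from 1.93 to 443453, and 0 member spots were saturated on either array. The brightest of all probes on NC read 514285. The median signal was 108 on NC and 96.5 on siFOXA1 for A_23_P, 87.0 and 77.3 for A_24_P, 49.9 and 42.3 for A_32_P, and 43.8 and 38.6 for A_33_P. The other catalogue prefixes had medians of 9.86 and 8.70, close to the lowest signal of a detected spot, which was 9.73 on NC. The upper ends of the prefixes lay closer together, with 95th percentiles on NC of 2484 for A_23_P, 3179 for A_24_P, 3696 for A_32_P and 2879 for A_33_P. The dimmer median of A_33_P came with the largest share of very bright probes among the 4 member prefixes, as 88 of its probes, 0.778%, exceeded a signal of 50000 on NC, against 33 of A_23_P, 0.341%. Unscaled medians were lower on siFOXA1 in each of these prefixes.

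About as many members were lower as higher in siFOXA1. Among the 19600 members detected on at least 1 array, 2601 or 13.3% were lower by more than 1.4-fold, against 12.2% of all 72960 such probes on the array. Another 2566 or 13.1% were higher, against 11.5% of all probes. In all, 26.4% of the members passed 1.4-fold, against 23.7% of all probes and 22.6% of the other catalogue prefixes. By prefix, 28.6% of A_23_P probes passed, 28.3% of A_24_P, 25.1% of A_32_P and 23.6% of A_33_P. The 2 directions were even in A_23_P, with 1093 lower and 1113 higher, and in A_24_P, with 419 and 439. A_32_P leaned to lower values, with 125 against 90. The median log2 difference over the members detected on both arrays was -0.03, and the quartiles lay at -0.26 and 0.21.

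This balance rests on the scaling between arrays. Of the members past 1.4-fold, 50.3% were lower with the 75th percentile and 49.7% with quantile normalization. With no scaling 74.4% were lower, and with the E1A spike-in probes as the reference 91.6% were. The same choices moved the median log2 difference of all probes detected on both arrays from -0.02 to -0.22 and -0.51, so that a probe's direction is stated relative to the other probes on its array. The spike-in RNA is added at labelling, and its part in this shift was not tested.

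Large changes were uneven in direction. Among the 18497 members detected on both arrays, 23.3% passed 1.4-fold either way, against 18.5% of all probes. Past 2-fold, 376 members were lower, 2.03% against 1.38% of all probes, and 657 were higher, 3.55% against 2.26%. Past 4-fold, 33 were lower, 0.178% and equal to the 0.178% of all probes, and 112 were higher, 0.606% against 0.329%. Past 8-fold, 0 were lower, against 0.0257% of all probes, and 23 were higher, 0.124% against 0.0801%. Log2 differences reached -2.95 at the low end and 5.69 at the high end.

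The share of large increases differed between the prefixes. A_23_P had 10 members lower and 65 higher past 4-fold, A_24_P had 3 and 21, A_32_P had 2 and 1, and A_33_P had 18 and 25. The higher ones made up 0.884%, 0.735%, 0.124% and 0.334% of the probes of each prefix detected on both arrays, so that A_33_P stood near the 0.329% of all probes. The lower ones made up 0.136%, 0.105%, 0.248% and 0.241%, against 0.178% of all probes. Past 8-fold, 12 of the higher members were of A_23_P, 6 of A_24_P and 5 of A_33_P. They made up 0.163%, 0.21% and 0.0669% of these prefixes, against 0.0801% of all probes. The other catalogue prefixes held 8 lower and 12 higher past 4-fold, or 0.206% and 0.309%. Members higher by 2-fold had a median signal of 62.7 on NC and 158 on siFOXA1, and those lower by 2-fold had 282 and 97.0, against 174 and 151 for all members detected on both arrays. Both sets were picked by the ratio of these signals, which fixes part of this gap. With normexp, which adds 50 to every signal, 14 members were lower and 21 higher past 4-fold, and with E1A scaling 92 were lower and 44 higher.

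The 5 largest increases began from low signals on NC. A_24_P316430 went from 11.7 ± 2.30 to 522 ± 52.3, a 51.5-fold difference on the scaled values. A_24_P354715 went from 61.6 ± 6.50 to 1584 ± 158, or 29.6-fold. A_23_P55251 went from 11.5 ± 2.32 to 246 ± 24.7, or 24.6-fold. The NC signals of A_24_P316430 and A_23_P55251 stood only slightly above the lowest detected signal of 9.73, so their folds depend on the background correction. With normexp the log2 differences of these 3 probes were 3.28, 3.90 and 2.30. A_23_P326319 went from 25.1 ± 3.27 to 351 ± 35.2 and A_23_P128281 from 16.9 ± 2.62 to 220 ± 22.1. In each of them the siFOXA1 signal lay well outside the scanner's error on NC. They were picked for the size of this difference, so this adds no support. The scanner's error also does not cover the difference between cultures. The largest increase of A_33_P was A_33_P3306146, from 16.3 to 204, and that of A_32_P was A_32_P44453, from 84.1 to 304, 4.16-fold. With normexp A_23_P326319, A_23_P128281 and A_33_P3306146 stood at 2.48, 2.11 and 1.97, against 4.01, 3.90 and 3.85 without it.

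The largest decreases were smaller and began from brighter spots. A_33_P3285585 went from 1359 ± 136 to 153 ± 15.4, a 7.73-fold difference. A_33_P3255964 went from 912 ± 91.2 to 105 ± 10.8 and A_33_P3381458 from 3642 ± 364 to 424 ± 42.5. These 3 probes carry alternating C and A stretches, which stand in capitals in their sequences. A_33_P3352382, which has none, went from 174 ± 17.5 to 20.7 ± 2.92, and A_32_P51237 from 541 ± 54.1 to 68.2 ± 7.18. The largest decrease of A_23_P was A_23_P157333, from 131 to 17.9, 6.38-fold, and that of A_24_P was A_24_P272310, from 155 to 28.3, 4.78-fold. With normexp these 2 probes had log2 differences of -1.26 and -1.18 against -2.67 and -2.26 without it. A_33_P3352382 stood at -1.41 against -2.87, and A_32_P51237 at -2.10 against -2.78. None of the probes whose sequences are shown shared 20 consecutive bases with another probe, so the array held no second reading of the same stretch of RNA for any of them.

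Alternating stretches were frequent at the low end. CACACA or ACACAC, which overlap each other and were searched on the listed strand only, occurred in 2.37% of the members and 3.28% of the other catalogue prefixes. They occurred in 442 of the 18497 members detected on both arrays, or 2.39%, in 30 of the 376 lower by 2-fold, or 7.98%, and in 13 of the 33 lower by 4-fold, or 39.4%. Among the 112 members higher by 4-fold 2 held it. Left without these probes, 20 members were lower and 110 higher past 4-fold.

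Agreement between spots of the same probe gave the scale of the measurement error within an array. Members have 1 spot, so catalogue probes of the same 4 prefixes printed 10 times were used. Their SD between spots had a median of 0.0859 on NC and 0.0955 on siFOXA1 on the log2 scale. For signals between 128 and 512 the SD was 0.0708 and 0.0732, which makes 1.15-fold the span that holds 95% of differences between 2 single spots, taken as 1.96 times the SD of a difference. For signals under 32 the SD was 0.242 and 0.262, and the span was 1.59-fold on NC and 1.65-fold on siFOXA1. At the 90th percentile of the SD the span was 1.48-fold and 1.49-fold for signals between 32 and 128, and 1.23-fold and 1.25-fold between 128 and 512. A difference of 1.4-fold was therefore inside the spot error at the median SD for signals under 32 and inside it for the noisier probes between 32 and 128. This error covers neither labelling nor the difference between cultures.

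The share past 1.4-fold fell with brightness. Among members detected on both arrays it was 30.0% for 2863 with a mean signal under 32, 25.3% between 32 and 128, 21.2% between 128 and 512, 20.4% between 512 and 4096, and 14.9% for the 890 above 4096. Direction moved with brightness too. Under 32, 358 members were lower and 500 higher, and above 4096, 105 were lower and 28 higher. The other catalogue prefixes shifted the same way, with 114 lower and 153 higher under 32, and 15 lower and 2 higher above 4096. The shift was therefore not confined to the members. The median log2 difference of the members went from 0.03 in the dimmest class to -0.06 in the brightest.

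A_33_P probes passed 1.4-fold less often than A_23_P probes at the same brightness. Between 32 and 128 the shares were 20.3% of A_33_P and 29.1% of A_23_P, between 128 and 512 they were 18.3% and 23.3%, and between 512 and 4096 they were 15.5% and 23.1%. Above 4096 they were 8.27% and 25.7%. A_24_P stood near A_23_P, with 29.3%, 22.3% and 25.2% in the 3 middle classes. The other catalogue prefixes lay below all 4 member prefixes in these classes, at 17.2%, 11.6% and 7.67%. Above 4096 neither held, as A_24_P stood at 13.1% of 130 probes and the other catalogue prefixes, at 12.5% of 136, lay above A_33_P. Of the probes printed 10 times, which are not members, 21.3% of 668 A_23_P, 24.3% of 235 A_24_P, 14.8% of 61 A_32_P and 17.7% of 660 A_33_P probes were past 1.4-fold. The median SD between spots of these probes on NC was 0.0949 for A_33_P and 0.0802 for A_23_P, and its part in the shares was not tested. No test between prefixes was made, because probes are not replicates of a condition.

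Detection rose with the share of G and C. Members with at most 30% G and C were detected at 37.5% on NC, those between 40% and 45% at 75.3%, and those above 60% at 96.6%. The median signal on NC ran from 3.90 to 84.5 and 418 in these classes. In each class up to 60% G and C, A_23_P was detected more often on NC than A_33_P, and A_33_P more often than the other catalogue prefixes. Between 40% and 45% G and C, 79.2% of A_23_P, 69.5% of A_33_P and 52.6% of the other catalogue probes were detected on NC. Between 55% and 60% the shares were 90.7%, 86.9% and 83.4%. A_24_P stood slightly above A_23_P in both classes, at 79.7% and 91.6%, and A_32_P above A_33_P, at 75.4% and 87.5%. Above 60% the order turned, with 97.0% of 271 A_33_P probes, 93.8% of 64 A_23_P probes and 93.9% of 98 other catalogue probes detected.

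The 2 strong bases did not count alike. Members with at most 8 C were detected at 60.3% on NC and those with 21 to 25 C at 98.6%, and each of the 96 members with more than 25 C were detected, with a median signal of 17659. Over the same classes of G, detection went from 69.1% to 80.8%, and the 54 members with more than 25 G had a median signal of 50.1. Between 55% and 60% G and C, members with more C than G had a median NC signal of 255 and those with more G than C one of 69.1. The 137 members above 50000 on NC held 21.7 C and 12.7 G on average, against 12.8 C and 13.3 G over all members. Of these bright members 11, or 8.03%, were lower past 1.4-fold and 0 were higher. The lower share was 11.8% over the members detected on both arrays and 9.32% over all such probes. The higher share was 11.5% and 9.23% in the same 2 sets. Increases were few at high signal in general, with 3.15% of members and 1.47% of other catalogue probes higher above 4096. Among the 3 brightest, A_33_P3370515 and A_33_P3354137 held 35 and 33 C, whereas A_33_P3244165 held 15.

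Ratios followed composition weakly. The median log2 difference of members detected on both arrays was -0.13 up to 30% G and C, -0.07 between 30% and 35%, -0.02 between 40% and 45%, and 0.00 above 60%. The share past 1.4-fold fell from 32.4% to 9.02% over the same range, while detection and signal rose.

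The prefixes differed in the kind of sequence they held. The hexamer AATAAA, the main signal for cleavage and polyadenylation near the end of an mRNA, occurred on the listed strand in 11% of A_33_P probes, 6.29% of A_32_P, 4.51% of A_24_P and 3.74% of A_23_P. It occurred in 7.12% of the members together, against 7.44% of the other catalogue prefixes. Read on the other strand it occurred in 3.98% of A_33_P, 4.82% of A_32_P, 4.04% of A_24_P and 3.46% of A_23_P probes. The other catalogue prefixes held it there in 3.41%. A match is a description of the letters and not evidence of a used site. Members with AATAAA were detected at 65.1% on NC and those without at 74.0%, and 21.9% and 23.4% of those detected on both arrays passed 1.4-fold. At least 1 of the 3 forward reading frames was free of stop codons in 84.2% of A_23_P, 82.5% of A_24_P, 79.8% of A_32_P and 81.9% of A_33_P probes, against 77.7% of the other catalogue prefixes. Members with such an open frame were detected at 74.7% on NC and the rest at 66.6%.

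A few members could be tied to genes through RefSeq. Their sequences were compared with 35116 windows of 300 bases around annotated gene starts, 250 before and 50 after, on GRCh38.p14. Of the members, 213 matched a window in full or by at least 20 bases at its edge, and 105 of these lay inside the annotated span of a gene on their own strand. Of the 213, 42 matched at an edge only, 24 of them among the 105, and the rest of their bases was not placed. Of the 105, 76 were detected on both arrays, and 9 were lower and 5 higher past 1.4-fold. This is 18.4%, near the 18.5% of all probes detected on both arrays and below the 23.3% of the members. The median log2 difference was -0.03. The span table does not separate exons from introns, but 49 of the 105 lay within 2000 bases of the gene's annotated end. Other places in the genome that could hold the same sequence were not searched.

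ITIH3, a heavy chain of the inter-alpha-trypsin inhibitors that the liver secretes, had the largest decrease among the members inside a gene that were detected on both arrays. A_33_P3313145 lies at chr3:52808622-52808681 on the plus strand, 116 bases before the annotated end of ITIH3. Its signal was 1500.0 ± 150 on NC and 515 ± 51.5 on siFOXA1, 2.53-fold lower. AKR1C1, an aldo-keto reductase that inactivates progesterone, was the next of those that passed under percentile scaling, normexp and quantile normalization. A_24_P152968 shares its first 21 bases with the end of the AKR1C1 start window, at chr10:4963444-4963464, and went from 9329 ± 933 to 3981 ± 398, 2.04-fold lower. AKR1C genes are close copies of each other, so the probe may also have bound RNA of the others.

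MED4, a subunit of the Mediator complex, was lower by 1.56-fold at A_33_P3369766, chr13:48076984-48077043, from 233 ± 23.4 to 130 ± 13.2. GALM, the mutarotase that feeds galactose into its breakdown, was lower by 1.49-fold at A_33_P3273436, chr2:38733697-38733756, from 836 ± 83.6 to 487 ± 48.8. DHRS4, a short-chain dehydrogenase and reductase with close copies beside it, was lower by 1.44-fold at A_33_P3383422, chr14:23955152-23955211, from 501 ± 50.1 to 303 ± 30.4. These 3 changes stand close to the threshold and rest on 1 spot per array. All 5 genes passed 1.4-fold under the 3 settings. CIMIP2A at log2 -1.08, SEC14L3 at -0.65, HCRT at -0.59 and RECQL5 at -0.58 were also lower past 1.4-fold, but with normexp they stood at -0.43, -0.13, -0.26 and -0.46 and did not pass. The CIMIP2A probe, A_33_P3409575, also matches the start of STPG3-AS1 on the same strand, 9849 bases before the CIMIP2A end, and which of the genes it reads was not tested.

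TMSB10, an actin-binding thymosin, had the largest increase among the members inside a gene that were detected on both arrays. A_23_P68106 shares its first 32 bases with the TMSB10 window, at chr2:84905674-84905705 on the plus strand, and went from 2109 ± 211 on NC to 7669 ± 767 on siFOXA1, 4.18-fold higher. RBM47, an RNA-binding protein, was 2.41-fold higher, from 90.6 ± 9.30 to 190 ± 19.1, at A_24_P226108, chr4:40426077-40426136 on the minus strand, 2797 bases before the annotated end of the gene. SPATS2L was 1.96-fold higher, from 1401 ± 140 to 2387 ± 239, at A_33_P3400389, chr2:200478132-200478191 on the plus strand, but with E1A scaling its log2 difference was 0.48 and under 1.4-fold. The remaining increases, PAX6 at log2 0.72 and NLRP3 at 0.73, came from dimmer spots and did not pass 1.4-fold with normexp or with E1A scaling, where both stood at 0.23.

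H2AC13 and H2AC18, which code for histone H2A, were matched by members that begin just before the gene's start. H2AC13 went from 476 ± 47.7 to 219 ± 22.0, 1.89-fold lower, and H2AC18 from 4327 ± 433 to 2546 ± 255, 1.48-fold lower. Members at H2AC6, another H2A gene, and H4C16, which codes for histone H4, were added after their values were seen. H2AC6 went from 477 ± 47.7 to 331 ± 33.2, a log2 difference of -0.32, and H4C16 from 99.0 ± 10.1 to 84.2 ± 8.63, or -0.03. Copies of histone genes share long stretches of sequence, so these probes may read more than the gene named.

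Most members inside a gene stayed under the threshold. PRC1, which bundles microtubules in dividing cells, went from 544 ± 54.4 to 373 ± 37.4, a log2 difference of -0.34. POLR2H, a subunit shared by the RNA polymerases, stood at -0.24, COG5, a Golgi tethering protein, at 0.02, and JPT1 at 0.36. The probe in OXT, which codes for the oxytocin precursor, gave 3265 on NC and 2840 on siFOXA1; whether this signal came from OXT RNA was not tested.

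Members that lay wholly in a start window were counted by strand. On the gene's strand there were 69, of which 63 were of A_33_P, and 69.6% were detected on NC. On the opposite strand there were 85, and 75.3% were detected. Past 1.4-fold, 4 of the first were lower and 5 higher, and 8 of the second were lower and 7 higher, out of 49 and 65 detected on at least 1 array. The shares past 1.4-fold were 18.4% and 23.1%, beside 26.4% of all members and 23.7% of all probes detected on at least 1 array. Of the 69 and 85, 24 and 39 also lay inside the annotated span of a gene on the probe's own strand. The opposite-strand calls include the probes already given for ITIH3, MED4, GALM, DHRS4, SPATS2L and RBM47. Another 22 members began in a window on the gene's strand and ran on past its end, and of the 17 of them detected on at least 1 array 5 were lower and 3 higher, or 47.1%. These include the probes given for CIMIP2A, AKR1C1, HCRT, TMSB10, H2AC13 and H2AC18.

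Besides the FOXA1 window probe, the probe in the FAM157A window was lower, from 33.5 ± 3.90 to 9.59 ± 2.12. The probe at KLF6, a zinc finger transcription factor, was higher, from 74.1 ± 7.67 to 96.3 ± 9.82, a log2 difference of 0.58. The probe at CIDEB, a lipid droplet protein of hepatocytes, went from 18.5 ± 2.78 to 25.1 ± 3.22, or 0.64. The FAM157A, KLF6 and CIDEB probes did not pass 1.4-fold with normexp. With no scaling those at KLF6, 0.38, and CIDEB, 0.44, did not pass either. The probe at HSPB1, a small heat shock protein, stood at 0.38, and that at CYP26A1, which breaks down retinoic acid, at -0.17. The probes at FAM157A, CIDEB, HSPB1 and CYP26A1 ended 56, 54, 7 and 9 bases upstream of the annotated starts. Which RNA they read was not tested.

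Where only 1 array detected a window probe, the fold is a bound set by the lowest detected signal of the other array. The probe in the CCDC86-AS1 window, A_24_P115932, had a signal of 79.2 ± 8.16 on NC and 6.72 ± 2.01 on siFOXA1 and was at least 7.31-fold lower. The probe in the RNASE11 window, A_33_P3332292, had 2.02 ± 2.03 on NC and 22.8 ± 2.97 on siFOXA1 and was at least 2.69-fold higher.

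The brightest members placed on a gene's own strand differed little between the arrays, AKR1C1 apart. A_33_P3354137, which spans the MAP4 start, gave 372140.0 on NC and 346699 on siFOXA1, a log2 difference of 0.10. The probes at ACAN, 145307 on NC, and CCDC86, 102198, stood at -0.04 and 0.02. With percentile scaling, PTAFR at -0.16 and NLGN4X at -0.25 had the lowest values among the 10 brightest of these after AKR1C1. With quantile normalization this order did not hold. PTAFR then stood at -0.010, NLGN4X at -0.051, MAP4 at -0.046 and LOC107985388 at -0.058. Members on the opposite strand of a start window were not ranked here, and those at PRCD, 234350.0 on NC, and BAMBI, 114198, stood at 0.07 and 0.11.

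The gene lists chosen for liver and for siRNA work, with 406 entries in 16 lists, could hardly be applied. FOXA1 was the only one of 39 liver transcription factors with a placed member, ITIH3 the only one of 50 hepatocyte secreted proteins, and AKR1C1 the only one of 42 genes of bile acid, drug and hormone metabolism. The remaining lists and the cell type markers, hepatocyte markers included, had 0 placed members and were not analysed here. By sequence, 6 members shared at least 25 bases with a miRNA hairpin of RefSeq on either strand, and the 4 of them detected on both arrays stood between -0.28 and 0.10.

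Control probes named for housekeeping genes gave the steadiness of the arrays, with up to 10 spots each. The GAPDH 3′ control read 75207 ± 3079 (SD over spots) on NC and 65434 ± 2393 on siFOXA1, a scaled log2 difference of 0.00, and the GAPDH 5′ control stood at -0.08. The PGK1 3′ control stood at -0.01 and the 5′ control at 0.13. Both 5′ controls thus moved by less than 1.4-fold, in opposite directions.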

How the data were processed

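Gene expression in HepG2 cells was measured on 1 Agilent one-colour array for NC and 1 for siFOXA1. The deposited scanner files list spot intensities and flags from Agilent Feature Extraction 10.7.1.1, in which background and within-array trend were already removed by the authors, and a deposited table lists log2 values. Averaging log2 intensities per probe and normalizing quantiles gave the deposited log2 table again within 0.019, so it served as an alternative.

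Probes were chosen by name and number of spots. The members, gene lists and tests were chosen with earlier results of these data known. Outlier-flagged spots (1479 and 1416 of the NC and siFOXA1 arrays) were dropped, and log2 intensities were reduced by each array's 75th percentile over probes that were not controls. Detection is the software's call of a spot well above background. Calls used 1.4-fold over probes detected on at least 1 array. The number of arrays limits the precision. Probes named by rank were the 5 largest decreases and increases, and by gene up to 12 each way, among members detected on both arrays that passed 1.4-fold with percentile scaling, normexp (offset 50) and quantile normalization. The largest of each prefix and the brightest were added. Naming through RefSeq start windows, matches at window edges, counts past 4-fold and 8-fold under the alternatives, and leaving out alternating stretches were chosen after seeing the data, and so were the genes named that did not pass 1.4-fold. Transcript sequences were not used here, so most members have no gene name. The calling steps were tested on simulated data. Tools were limma 3.58.1 in R 4.3.3 for normexp, and pandas 2.3.3, numpy 2.4.6 and scipy 1.17.1 under Python 3.11.15.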

Additional observations from a re-analysis of the deposited data

How the results depend on the processing

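Of 289 alternative values, 189 stayed within the tolerance (1.5 times for counts, 1 SD of a difference between spots for log2 values, the Wilson interval for shares). No called value changed sign, but the median of the members, within the tolerance, went from -0.03 to 0.04 without a filter on dim probes. With E1A scaling the balance of large changes turned. Quantile normalization, median scaling, the authors' values, a percentile taken over jointly detected probes, detection on both arrays and kept flagged spots left the 1.4-fold counts and the median within it. With no scaling, 4853 members were lower and 1672 higher, the median was -0.228, 4 were lower and 14 higher by 8-fold, and the FOXA1 probe stood at -1.98. With E1A scaling, 10654 were lower and 974 higher, the median was -0.521, the FOXA1 probe stood at -2.28, 4639, 1797, 534 and 4658 probes of A_23_P, A_24_P, A_32_P and A_33_P passed 1.4-fold, 92 were lower and 44 higher by 4-fold, and 10 and 8 by 8-fold. With normexp, 1333 were lower and 1047 higher, 1170, 409, 96 and 705 passed by prefix, the FOXA1 probe stood at -0.898, 14 were lower and 21 higher by 4-fold, and 3 higher by 8-fold. Without a filter on dim probes, 324 of A_32_P and 2852 of A_33_P passed. At 1.2-fold, 5138 were lower and 4427 higher, with 4010, 1578, 413 and 3564 by prefix, and at 2-fold 585 and 947, with 659, 256, 57 and 560. With flagged spots kept, 1 member was lower by 8-fold. With the software's weaker call of a signal above background, detection on NC and siFOXA1 was 88.1% and 88.2% for A_23_P, 87.3% and 87.4% for A_24_P, 81.4% and 82.8% for A_32_P, and 82.7% and 82.2% for A_33_P. Beyond these settings' own construction the cause was not tested. No paired analysis was possible because there is 1 array of each kind. Members with a signal near the lowest detected one, 9.73 on NC and 9.42 on siFOXA1, carry the largest spot error, and their folds are the least certain.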
